A study of Mus musculus with 9 samples.

Results

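The circular RNAs described here come from the locus of Adgre1, which encodes the macrophage surface protein F4/80, on mouse chromosome 17. The locus of Ptprc, which encodes the leukocyte phosphatase CD45, was searched in the same way on chromosome 1. A circRNA was taken as a member when the position in its probe name lay wholly within 57495000 to 57625000 on chromosome 17 or within 139955000 to 140075000 on chromosome 1 (build mm9, per the file headers). This gave 7 circRNAs, all of them in the Adgre1 window, out of 14043 circRNAs named by position and 30534 circRNAs on the array. No circRNA named by position lay in the Ptprc window, so that no value stands for Ptprc below. The other circRNAs carry codes in place of positions and were not placed.

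The circles were chosen by the position of their probes alone, but both loci were selected on knowledge of the levels and group differences measured on these same 9 arrays. The values below are therefore a description, and the adjusted p-values, taken over all circRNAs tested, are given as a record of where the members stood.

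The arrays carried liver RNA of male C57BL/6J mice aged 20 weeks, an inbred strain. Metformin mice ate a high fat diet (45% of energy from fat) for 17 weeks and received 3 mg/kg of metformin per day by gavage in the last 5 weeks. High fat diet mice ate the same diet and received saline by gavage in the last 5 weeks. Control mice were kept on chow over those 17 weeks and have no gavage in the labels, so that diet and gavage cannot be told apart against Control. There were 3 arrays in every group, each with pooled liver RNA of 4 mice; p-values measure the spread between pools, and the spread between mice was not measured.

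F4/80 is an adhesion receptor with EGF-like repeats and the classical surface marker of mouse macrophages. In liver it marks Kupffer cells, the resident macrophages of the sinusoids, which clear particles and bacteria from portal blood. Macrophages that derive from monocytes also carry it, and high fat feeding is known to bring such cells into mouse liver. CD45 is a receptor-type tyrosine phosphatase carried by nearly all white blood cells. A circRNA forms when a downstream splice donor is joined back to an upstream acceptor, so that 1 gene can yield several circles that share an end. The resulting loop has no free end and resists RNase R, an exonuclease used here to remove linear RNA before labelling.

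**Figure D1:**
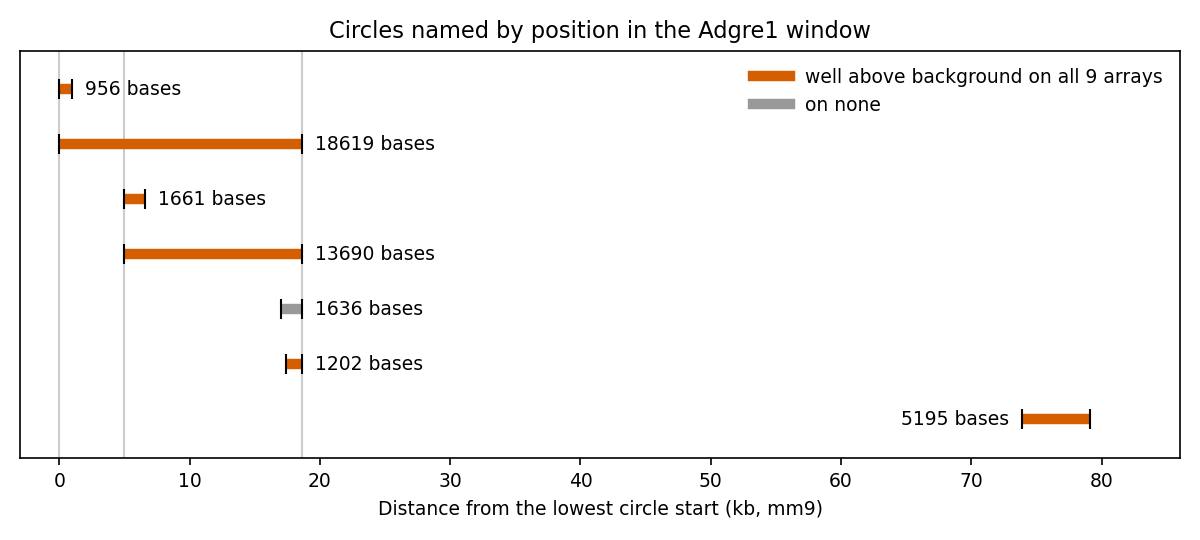
Horizontal bars show the 7 circles of the Adgre1 window by distance from the lowest circle start (kb, build mm9). Orange bars were well above background on all 9 arrays and the grey bar on none; vertical lines mark ends used by more than 1 circle, and 6 of the circles lie within one cluster.

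The 7 circles fell into a cluster of 6 and a single circle farther up the chromosome. The circle spanning 956 bases ran from 57541328 to 57542284, and the circle of 18619 bases began at the same base and ended at 57559947. The circle of 1661 bases ran from 57546257 to 57547918, and that of 13690 bases shared its start and again ended at 57559947. Circles of 1636 bases (from 57558311) and 1202 bases (from 57558745) ended at that base as well. The end at 57559947 was thus used by 4 of the 7 circles, and the starts at 57541328 and 57546257 by 2 each. The seventh circle, of 5195 bases, ran from 57615252 to 57620447 and shared no end with the others.

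The probe names give no strand or exon, and the gene models used here are on another build, so that the ends were not set against exons. From the lowest start to the highest end the circles covered 79119 bases, which is shorter than the Adgre1 gene (124949 bases in the RefSeq table of GRCm38). In that table Adgre1 lies between Vav1 and Vmn2r120, and the predicted genes Gm18069 and Gm20243 lie within it. Assignment to Adgre1 rests on the window alone. No circRNA named by position straddled an edge of either window.

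Among circRNAs named by position, the nearest below the Adgre1 window lay 136.9 kb away (57357988 to 57358094). Its log2 level was 5.74 ± 0.105 in Metformin, 5.59 ± 0.378 in High fat diet and 5.81 ± 0.254 in Control pools (SD, n = 3 each), and these levels differed by less than their spread. The nearest above lay 377.7 kb away (58002707 to 58031516), at 1.37 ± 0.146, 1.20 ± 0.114 and 1.33 ± 0.156 in the same groups. On chromosome 1 the nearest circRNA named by position below the Ptprc window, 57.4 kb away (139896769 to 139897555), was well above background on 0 of 9 arrays. The nearest above it, 354.3 kb away (140429314 to 140440920) stood at -0.47 ± 0.199 in Metformin, -0.36 ± 0.164 in High fat diet and -0.22 ± 0.113 in Control pools.

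A level here is log2 of the background-subtracted intensity of a probe minus the 75th percentile of its array. Each circRNA probe has a partner probe of the same name with the ending _neg; the labels and files used here do not say what it binds, and it is read as a paired signal. Probes well above background made up 69.4% to 83.9% on the Metformin arrays, 71.8% to 82.4% on the High fat diet arrays and 80.1% to 84.3% on the Control arrays. All 3 Control arrays and High fat diet replicate 1 lay in column 1 of the first slide, and Metformin replicate 3 was alone on the second slide. None of the 36 marker genes listed for macrophages, other leukocytes, hepatocytes, endothelial and stellate cells is named by a probe, so the cell makeup of the pools could not be checked. In whole liver, a change in the number of macrophages and a change in RNA per macrophage cannot be told apart.

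Of the 7 Adgre1 circles, 6 were well above background on all 9 arrays, and so were their partners. The circle of 1636 bases was well above background on none, with intensities of 5.58 to 18.6 units, and was not tested. It ends at the same base as the circle of 1202 bases, which was detected everywhere at 118 to 455 units, and their starts lie close together. No member was saturated or left out as an outlier spot. The 6 detected circle probes were brighter than their partners on every array. The median ratio of intensities was 3.52 for the circle of 1661 bases, 3.46 for that of 5195 bases and 2.89 for that of 13690 bases. It was only 1.45 for the circle of 18619 bases, 1.32 for that of 956 bases and 1.22 for that of 1202 bases, whose signal stood little above the paired reading.

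The comparison of High fat diet with Control addresses the diet, with saline gavage, against chow. All 6 had higher mean levels in High fat diet pools, by log2 differences of 0.52 to 0.97 (1.43-fold to 1.96-fold), with a median of 0.63. The median over all 25777 circRNAs tested in this comparison was -0.06, and 38% of them had a difference above 0. None of the 6 passed an adjusted p of 0.05 (limma; lowest 0.325, highest 0.742), nor did any circRNA on the array (0 of 25777 called, 0%, with 7.22% at an unadjusted p under 0.05). At an unadjusted p under 0.05, 5 of the 6 were higher on the diet, against 2.07% of all circRNAs.

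The circle of 1202 bases differed most. It stood at -1.31, -1.21 and -1.03 in the High fat diet pools, against -2.21, -2.67 and -1.57 in the Control pools. Every High fat diet pool lay above every Control pool, and the log2 difference was 0.97 ± 0.226 (SE; limma, adjusted p = 0.325).

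The circle of 18619 bases, which spans the whole cluster, had levels of -0.76, -1.01 and -0.89 on the high fat diet, against -1.96, -1.94 and -1.11 in Control pools. The groups did not overlap, and the difference was 0.78 ± 0.224 (SE; limma, adjusted p = 0.461). The circle of 13690 bases had levels of -0.18, -0.20 and 0.10 on the diet and -0.91, -0.97 and -0.36 in Control pools. These groups did not overlap either, with a difference of 0.66 ± 0.172 (SE; limma, adjusted p = 0.396).

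The circle of 1661 bases, one of the short circles, was at 1.59, 1.18 and 1.31 in High fat diet pools, against 0.56, 0.54 and 1.20 in Control pools. Control replicate 3 lay just above the lowest High fat diet pool, and the difference was 0.59 ± 0.186 (SE; limma, adjusted p = 0.505). The circle of 956 bases was at 0.68, 0.58 and 0.85 on the diet and at -0.03, -0.04 and 0.63 in Control pools. Here too only Control replicate 3 reached into the range of the High fat diet pools, and the difference was 0.52 ± 0.181 (SE; limma, adjusted p = 0.562).

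The circle of 5195 bases, outside the cluster, was at -0.52, -0.63 and -0.76 on the diet, against -1.76, -1.36 and -0.36 in Control pools. Control replicate 3 was the highest of all 9 arrays for it, above all 3 High fat diet pools. Its difference of 0.52 ± 0.279 (SE) had the highest adjusted p of the 6 (limma, adjusted p = 0.742), and it was 0.22 without Control replicate 1 and 0.92 without Control replicate 3.

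**Figure D2:**
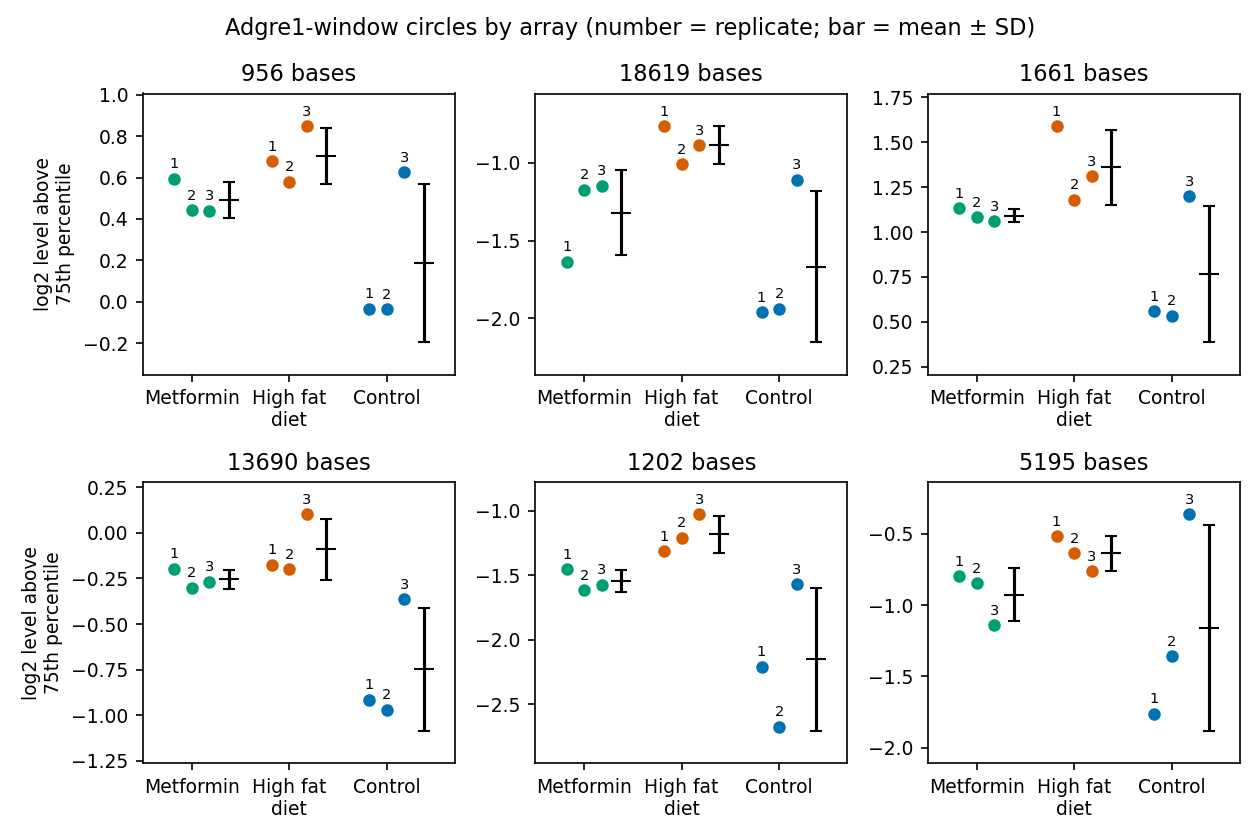
Points show the log2 level of each of the 6 detected Adgre1-window circles on each array, above the array's 75th percentile, with the replicate number beside each point; horizontal marks and bars are the mean and SD of 3 pools. Control replicate 3 is the highest Control pool in all 6 panels. Control replicates 1 and 2 lie below every High fat diet pool and every Metformin pool. Setting Control replicate 3 aside was chosen after the levels were seen. Without it, 7.96% of all circRNAs were higher without overlap in High fat diet than in Control pools, and 10.7% in Metformin pools.

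The Control pools did not form a tight group at this locus. Control replicate 3 was the highest Control pool for all 6 circles, and the SD of the Control pools was 1.80 to 5.93 times that of the High fat diet pools. The groups did not overlap for 3 of the 6 circles, against 3.6% of all circRNAs that were higher without overlap. The remaining Control replicates 1 and 2 lay below every High fat diet pool for all 6 circles. This follows in part from setting aside the highest pool after the levels were seen. Without Control replicate 3, 7.96% of all circRNAs were higher in High fat diet than in Control pools without overlap. The mean over the 6 circles was -0.12 ± 0.0803 in High fat diet pools and -0.797 ± 0.462 in Control pools (SD, n = 3 each). The difference of these means was 0.67, and it was 0.94 without Control replicate 3, 0.55 without replicate 1 and 0.54 without replicate 2. Control replicate 3 also had the highest share of probes well above background (84.3%); its part in the spread at this locus was not tested. Within column 1 of the first slide, where High fat diet replicate 1 can be set against all 3 Control pools, the difference was 0.71.

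**Figure D3:**
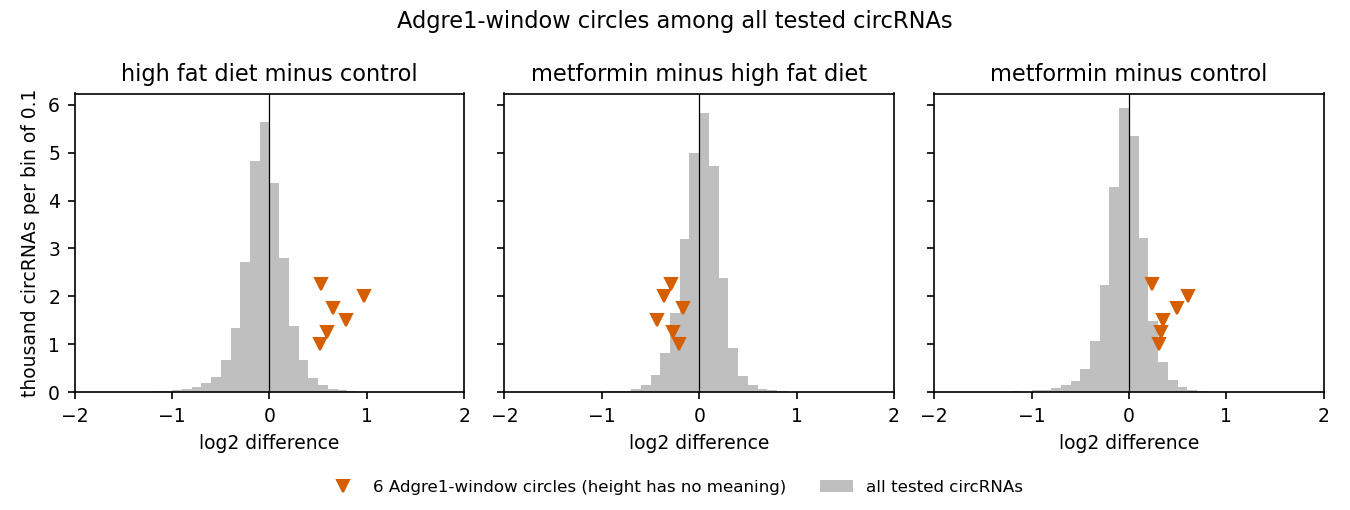
Grey bars count all tested circRNAs by log2 difference in bins of 0.1 (values beyond the axis stand in the outermost bins), and orange triangles mark the 6 Adgre1-window circles, at heights without meaning. The circles lie right of the bulk for high fat diet minus control (0.52 to 0.97), left of 0 for metformin minus high fat diet (-0.43 to -0.16) and right of 0 for metformin minus control (0.23 to 0.60).

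The comparison of Metformin with High fat diet addresses the drug, since both groups shared the diet and a gavage. All 6 circles had lower mean levels with metformin, by log2 differences of -0.43 to -0.16 with a median of -0.28, against a median of 0.03 over 25828 circRNAs, of which 56.2% had a difference above 0. None passed an adjusted p of 0.05 (limma; 0.970 for each of the 6), none had an unadjusted p under 0.05, and no circRNA on the array was called (0%, with 3.9% at an unadjusted p under 0.05). These differences share the High fat diet pools with the comparison above, so that opposite signs in both are no separate observation.

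For the circle of 18619 bases the Metformin pools stood at -1.64, -1.17 and -1.15, against -0.76, -1.01 and -0.89 in High fat diet pools. All 3 Metformin pools were below all 3 High fat diet pools, with a difference of -0.43 ± 0.224 (SE; limma, adjusted p = 0.970). The circle of 1202 bases was at -1.45, -1.62 and -1.57 with metformin, again below each High fat diet pool, and differed by -0.36 ± 0.226 (SE). Metformin levels of the circle of 1661 bases were 1.13, 1.08 and 1.06, a difference of -0.27 ± 0.186 (SE) without overlap. Leaving out single arrays moved these differences both ways. That of the circle of 18619 bases was -0.52 to -0.28 (-0.28 without Metformin replicate 1), and that of the circle of 1202 bases -0.43 to -0.29. That of the circle of 1661 bases was -0.36 to -0.15 (-0.15 without High fat diet replicate 1), and -0.14 within column 2 of the first slide.

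The circle of 5195 bases was at -0.80, -0.85 and -1.14 with metformin and differed by -0.29 ± 0.279 (SE). Its groups did not overlap either, though the SE was nearly as large as the difference. Leaving out each array, this difference ranged from -0.36 to -0.18 (-0.18 without Metformin replicate 3), and it was -0.12 within column 2. In all, 4 of the 6 circles were lower with metformin without overlap, against 2.69% of all circRNAs. The groups overlapped for the circle of 956 bases, at 0.59, 0.44 and 0.44 with metformin (difference -0.21 ± 0.181, SE). They also overlapped for that of 13690 bases, at -0.20, -0.30 and -0.27 (difference -0.16 ± 0.172, SE). Leaving out each array, these differences ranged from -0.27 to -0.14 and from -0.22 to -0.0673. Both were smallest in size without High fat diet replicate 3. The mean over the 6 circles was -0.41 ± 0.0240 in Metformin pools and -0.12 ± 0.0803 in High fat diet pools (SD, n = 3 each), a difference of -0.29. Within column 2 of the first slide, with 2 pools of each group, this difference was -0.26, and without Metformin replicate 3, the array of the second slide, it was -0.27.

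Against Control, a comparison in which diet, gavage and drug all differ, Metformin pools had higher mean levels for all 6 circles. The log2 differences were 0.23 to 0.60 with a median of 0.34, against a median of -0.03 over 25763 circRNAs, of which 43.2% had a difference above 0. None passed an adjusted p of 0.05 (limma; lowest 0.907), and no circRNA on the array did (0%, with 5.07% at an unadjusted p under 0.05). The circle of 1202 bases differed by 0.60 ± 0.226 (SE; limma, adjusted p = 0.921) and that of 13690 bases by 0.49 ± 0.172 (SE; limma, adjusted p = 0.907). The difference of the circle of 1202 bases was 0.34 without Control replicate 2 and 0.40 with normexp and quantile normalization. These were the 2 members with an unadjusted p under 0.05 on the higher side, against 1.63% of all circRNAs.

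The circle of 13690 bases was the 1 member whose Metformin and Control pools did not overlap, against 4.74% of all circRNAs that were higher without overlap. Control replicate 3 was exceeded by a Metformin pool for 2 of the 6 circles. Leaving out 1 Control pool moved the difference to between 0.20 and 0.53 for the circle of 956 bases, between 0.20 and 0.63 for that of 18619 bases and between 0.21 and 0.54 for that of 1661 bases, with the highest value each time without Control replicate 3. The mean over the 6 circles was -0.41 ± 0.0240 in Metformin and -0.797 ± 0.462 in Control pools (SD, n = 3 each). The difference was 0.39, with 0.65 without Control replicate 3, 0.26 without replicate 1 and 0.25 without replicate 2. For the circle of 5195 bases it was -0.0675 without Control replicate 1, 0.14 without replicate 2 and 0.63 without replicate 3, so that its direction against Control rested on that pool. In order of mean level the groups ran High fat diet, Metformin, Control for each of the 6 circles, and the Metformin and Control pools overlapped for 5 of them. The levels of the circles varied together over the arrays, so that these are not 6 separate observations.

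The partner probes differed between the groups much as their circles did. Their levels over the 9 arrays correlated with those of the circle at Pearson r = 0.876 to 0.944, a description over arrays that share the group differences and the array scaling. All 6 partners were higher in High fat diet than in Control pools, by 0.49 to 1.11 on the log2 scale, while 38.2% of all partner probes had a difference above 0. None passed an adjusted p of 0.05 (limma; 0.341 to 0.701; 0% of all partner probes), while 6 of 6 were higher at an unadjusted p under 0.05, against 2.21% of all. The pools did not overlap for 3 of the 6 partners, against 3.74%. With metformin, 3 of 6 partners were lower than in High fat diet pools without overlap, against 1.89% of all partner probes, and 1 of 6 was higher than in Control pools without overlap, against 7.32%. The log2 ratio of circle to partner was higher in High fat diet than in Control pools for 4 of the 6 pairs and lower for 2, by -0.45 to 0.20. Whether the differences come from circles or from other RNA of the locus was not tested.

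The pair of the circle of 13690 bases, picked out after its values were seen, had the lowest ratio difference against Control, of a size that depended on the background correction. Its partner stood at -1.50, -1.73 and -1.42 in High fat diet pools, against -2.84, -3.04 and -2.11 in Control pools, a log2 difference of 1.11 ± 0.222 (SE; limma, adjusted p = 0.341). With metformin the partner was at -1.74, -1.59 and -1.37, a difference of 1.10 ± 0.222 from Control (SE; limma, adjusted p = 0.562) and of -0.01 ± 0.222 from High fat diet (SE; limma, adjusted p = 0.997). Its Metformin and High fat diet pools overlapped, and both groups lay above all 3 Control pools.

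The log2 ratio of this circle to its partner was 1.55, 1.29 and 1.10 in Metformin, 1.33, 1.53 and 1.52 in High fat diet and 1.93, 2.07 and 1.75 in Control pools. It was lower in every High fat diet and every Metformin pool than in every Control pool, by -0.45 ± 0.140 (SE; limma, adjusted p = 0.856) and -0.60 ± 0.140 (SE; limma, adjusted p = 0.637). For the log2 ratio, 5.96% of all pairs were lower without overlap for High fat diet against Control and 8.26% for Metformin against Control. Under normexp background correction with 75th percentile scaling or quantile normalization, these ratio differences were -0.14 and -0.15 for High fat diet against Control and both -0.24 for Metformin against Control. The partner's differences were then 0.65 and 0.67, and 0.63 and 0.62. Ratios of the other 5 pairs differed by -0.05 to 0.20 between High fat diet and Control. For the circle of 18619 bases the ratio was lower in Metformin than in High fat diet pools without overlap, at 0.40, 0.44 and 0.54 against 0.58, 0.68 and 0.65 (-0.18 ± 0.118, SE; limma, adjusted p = 0.969), as was that of 5.29% of all pairs.

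**Figure D4:**
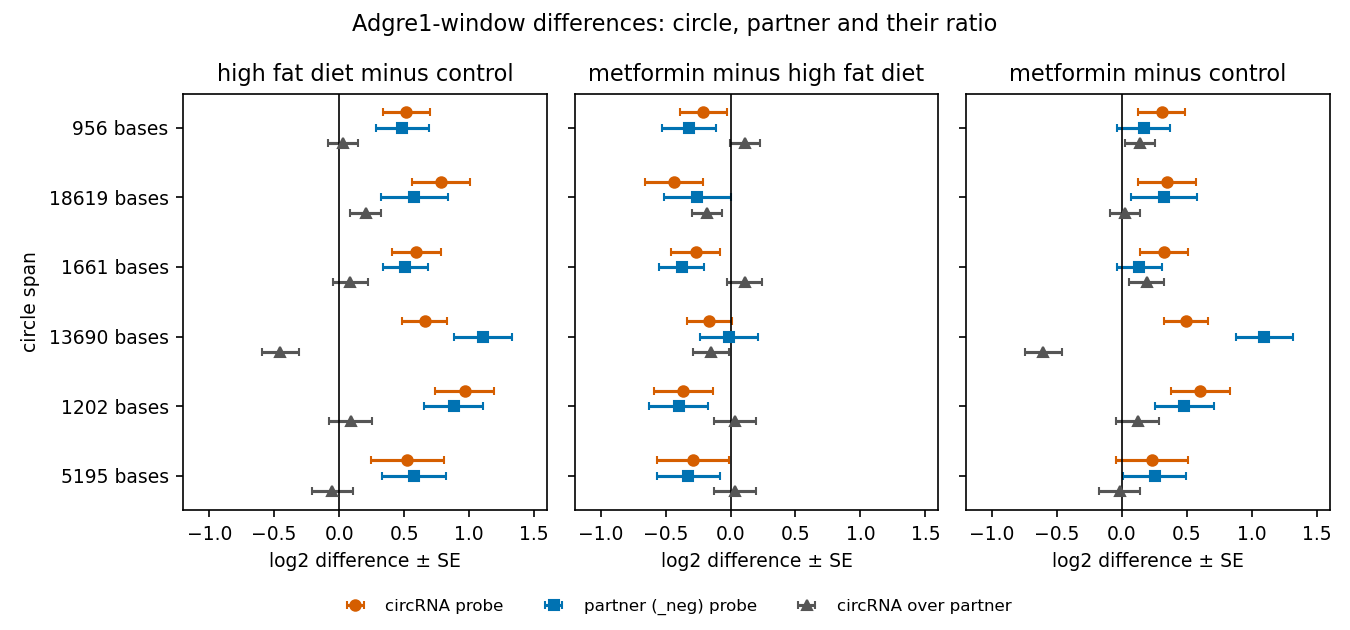
Log2 differences with SE for the circRNA probe (circles), its partner (squares) and their log2 ratio (triangles) in the 3 comparisons, with 1 row per detected Adgre1-window circle. The ratio of the circle of 13690 bases lies at -0.45 and -0.60 against Control, with its partner at 1.11 and 1.10, and that of the circle of 18619 bases at -0.18 for metformin minus high fat diet.

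In the authors' deposited table, whose values follow the difference between circle and partner intensity, the 6 circles were again higher on average in High fat diet pools. For the circle of 1661 bases the authors' log2 values were 10.74, 10.41 and 10.46 on the diet, against 9.64, 9.64 and 10.28 in Control pools. For the circle of 18619 bases they were 7.29, 7.19 and 7.34, against 6.23, 5.27 and 6.20, groups that do not overlap in the authors' deposited table either. For the circle of 1202 bases, which differed most by level, the values in the authors' deposited table were 4.84, 6.09 and 6.80 on the diet, against 5.32, 2.43 and 5.08 in Control pools, and these groups overlap. The circle of 956 bases, with a partner nearly as bright, had authors' deposited values of 8.10, 8.34 and 8.62 in Metformin and 7.59, 8.48 and 8.50 in High fat diet pools, which turned its metformin difference to 0.16. On the scale of the authors' deposited table the High fat diet difference was 1.37 for the circle of 18619 bases and 1.64 for that of 1202 bases. Both were larger than by level, with adjusted p of 0.655 and 0.942 (limma). The difference was 0.65 for the circle of 956 bases, 0.68 for that of 1661 bases and 0.54 for that of 5195 bases. For the circle of 13690 bases it was smaller than by level (0.49 against 0.66).

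The levels of the 6 circles varied together over the arrays. Pairwise Pearson correlations of the 6 circles over the 9 arrays were 0.738 to 0.968 (15 pairs), and those of their deviations from the group means 0.643 to 0.980. They are a description: the circles share arrays and scaling, and several share an end. The deviations also rest largely on the Control pools, where replicate 3 was highest for each of the 6 circles. The SD of the mean over the 6 circles was 0.462 in Control, 0.0803 in High fat diet and 0.0240 in Metformin pools. Among 11038 circRNAs named by position outside both windows, the median correlation with the mean of the 6 circles was 0.00424, and 0.0544% exceeded 0.9. The highest was a circRNA on chromosome 6 (112997409 to 113010079, mm9; r = 0.956), followed by one on chromosome 13 (101252893 to 101259127; r = 0.952) and one on chromosome 9 (20995771 to 20999302; r = 0.940).

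The 3 look-alikes showed smaller differences than the Adgre1 circles. The chromosome 6 circRNA averaged -0.54 ± 0.0403 in Metformin, -0.43 ± 0.0875 in High fat diet and -0.66 ± 0.150 in Control pools (SD, n = 3 each). In the values of the authors' deposited table its correlation was 0.104, so that the likeness depends on how signal is read. The files do not pair these circRNAs with genes.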

How the data were processed

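Liver circRNAs were measured on 1-colour mouse circRNA arrays, with 3 arrays per group. Per the labels' protocols, 5 µg of RNA from 15 mg of liver was digested with RNase R for 30 minutes and labelled with Cy3. Per the file headers, the arrays were read by Agilent Feature Extraction 11.5.1.1 with an mm9 grid, whereas version 10.7 stands in the submitters' processing notes. Processed intensity, as deposited, is background-subtracted and not scaled between arrays; the median spot and background intensities are raw. The deposited table of log2 values has a median of 6.51 on each array, follows the rank of circRNA minus partner intensity (Spearman 1.00 above a floor of -3.32), and the labels do not say how its floor was set; other flags are scanner marks of 0 or 1, as deposited.

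Spots marked as outliers were left out, spots of a probe averaged, log2 taken, and each array's 75th percentile (control spots left out) subtracted. A circRNA was tested if well above background on all 3 arrays of a group (25864 circRNAs, 84.7%). One limma 3.58.1 model (R 4.3.3, no trend) held all 3 groups, with p-values adjusted by Benjamini-Hochberg over all tested; the fit was tested on simulated data. All p-values measure the spread between pools; the number of arrays limits precision. Missing spots leave 25763 to 25828 circRNAs per comparison. Partners and log2 ratios were fitted likewise.

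All circRNAs placed by position in the windows are given, then those nearest outside and the 3 most correlated with the mean of the detected members. Members, lists and tests were chosen with earlier results of these data known. Alternatives were other background corrections, scalings and filters, trend, array weights, array column, a replicate block, the authors' values, and leaving out each array. Normexp was run on the median spot signal in place of the planned mean signal, and the planned Ptprc values had no circRNA to rest on. Marker genes of liver cell types could not be placed and gave no result. Genes were named from the RefSeq table of GRCm38, used for length and order only.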

Additional observations from a re-analysis of the deposited data

How the results depend on the processing

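No Adgre1-window circle was called under any alternative run, in any of the 3 comparisons (354 values; smallest adjusted p = 0.151 for high fat diet minus control, 0.737 for metformin minus high fat diet and 0.525 for metformin minus control). The high fat diet difference kept its direction for all 6 circles in all 20 alternatives. Several of these could not change a circle's difference and repeat the main value. They are the filters, trend and robust fitting, the replicate block and leaving out a Metformin array. The direction turned for the circle of 956 bases for metformin minus high fat diet with the authors' values (0.16) and for the circle of 5195 bases for metformin minus control without Control replicate 1 (-0.0675; range -0.0675 to 0.63 leaving out each array). For the partner of the circle of 13690 bases the metformin minus high fat diet difference of -0.01 was above 0 without High fat diet replicate 1 (0.01), High fat diet replicate 3 (0.05) or Metformin replicate 1 (0.0772), and ranged from -0.11 to 0.0772 leaving out each array; the causes were not tested. The mean log2 ratio of circle to partner over the 6 pairs had no settled sign for high fat diet minus control: it was -0.02, against 0.0778 and 0.0808 with normexp under each scaling, -0.16 with no filter and -0.0982 within column 1.

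Leaving out each array in turn, the mean difference over the 6 circles was 0.54 to 0.94 for high fat diet minus control, -0.33 to -0.26 for metformin minus high fat diet and 0.25 to 0.65 for metformin minus control, with 0 members called each time. With no filter on dim probes, which adds the undetected circle, the metformin minus high fat diet mean was -0.22. Deviations of same-numbered arrays correlated weakly (r = -0.14 to 0.19, 2 of 9 pairs over 0.1), and 4 of 9 arrays correlated best with their own number. The labels do not say whether the replicate numbers mark a pairing, and these values cannot settle it. Every group holds the same replicate numbers, so that a replicate block cannot move the mean differences (0.67, -0.29 and 0.39). With the block, 4 circRNAs of the whole array were called for high fat diet minus control.

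The count of circRNAs called on the array, 0 in each comparison, was for high fat diet minus control 19 with normexp and 75th percentile scaling, 8 with normexp and quantile normalization, 1 with probes well above background on all 9 arrays, 7 with trend and robust fitting, 1 with the array column as a covariate, 2 within column 1 and 15 with the authors' values. For metformin minus high fat diet it was 1 with the array column and 14 with the authors' values, and 0 to 1 leaving out an array. For metformin minus control it was 6 and 3 with normexp under each scaling, 3 with trend and robust fitting, 1 with array weights, 1 with the array column and 23 with the authors' values. No array column of either slide holds both Metformin and Control pools, so that no within-column value exists for that comparison, and the Ptprc window gave no value under any setting. Chromosome 13's look-alike had r = 0.747 to 0.830 under normexp and the authors' values, and the chromosome 9 one was constant in the authors' table.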
